A study of Mus musculus with 24 samples.

Results

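The genes described here are 8 regulators of mRNA decay: Zfp36, Zfp36l1, Zfp36l2, Zc3h12a, Btg1, Btg2, Pnrc1 and Pnrc2. They were chosen by name, with earlier results of these data known. They were read through the 13 array probes that carry these symbols, among 21597 gene symbols on the array and 17326 genes tested. Expression was measured on 12 Agilent 2-colour mouse arrays, each hybridised with 2 replicates of 1 condition, 1 in the Cy5 and 1 in the Cy3 channel. C57BL/6 mice gave elicited peritoneal macrophages (EPM), washed out 3 days after thioglycollate and left to adhere overnight, bone marrow-derived macrophages (BMDM), grown from marrow in L-cell medium containing M-CSF, and B cells, enriched by depleting cells that carry CD43 or CD11b. Kdo2 lipid A (KLA), an agonist of TLR4, was given for 1 h or 12 h. The 12 h control was DMSO, the solvent, in each cell type. The early control was untreated cells for EPM and B cells, and DMSO for 1 h for BMDM, so solvent and time are not matched in the same way at 1 h.

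An mRNA is usually degraded by shortening its poly(A) tail, removing its cap and digesting the body. The ZFP36 proteins (Zfp36 encodes tristetraprolin, TTP) bind AU-rich elements in cytokine mRNAs and recruit the CCR4-NOT deadenylase. Regnase-1, the product of Zc3h12a, is an endonuclease that cuts stem-loops in some of the same mRNAs. BTG1 and BTG2 bind the CAF1 subunits of CCR4-NOT and are known as antiproliferative proteins, and PNRC2 links decapping to nonsense-mediated decay. In macrophages TTP and Regnase-1 are known as a brake on the products of TLR4 signalling, and their genes are themselves induced by it.

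The reading of the groups is limited in 3 ways. Each condition lies on 1 array and each cell type on 1 slide of 4 arrays, so a difference between conditions includes any difference between arrays, and cell type and slide cannot be told apart. The replicates are called biological in the sources used here, but the p-values measure only the spread between the 2 channels of an array. For that reason the counts for KLA and for EPM against BMDM in their responses are set beside a fit with the mean of an array as 1 sample. In it the 2 control arrays of a cell type stand as replicates, with time in culture counted as spread. In EPM and B cells the difference in solvent is counted so too. The counts for basal levels, for controls over time and for the change of a response rest on the channels alone. Lastly, the authors' normalized values labelled B cell KLA 1 h and B cell DMSO 12 h match the scanner values of the other of these conditions, in all 4 columns (lowest correlation 0.96), while the other 20 columns match their own. The main B cell tests of KLA and of the control over time are therefore given with the labels of the scanner files and with the 2 labels exchanged. Other fits of the scanner values, the further probes, the markers and the figures carry the labels of the scanner files only. In the scanner files the array labelled KLA 1 h lay near untreated B cells in several markers, and that labelled DMSO 12 h near KLA 12 h. In the order untreated, KLA 1 h, DMSO 12 h and KLA 12 h, Cd22 read 12.47, 12.43, 13.99 and 13.84, and Lck 10.11, 10.03, 11.43 and 11.37. Emr1 read 7.52, 7.44, 10.88 and 10.61, and Hbb-b1 12.93, 12.98, 11.85 and 11.47. Other markers were ordered otherwise: Cd14 read 6.66, 6.78, 6.53 and 7.14, and Cd79b 17.07, 17.12, 17.15 and 16.96. No count over all markers is given here, and which labels are right was not tested.

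The labelled cell types had their defining markers. All 8 macrophage markers were well above background in EPM and BMDM, with summed log2 intensities from 108 to 112 and from 113 to 115, and from 54.5 to 57.8 in B cells. In B cells 4 or 5 of these 8 were also well above background. All 8 B cell markers were well above background in B cells, with sums from 107 to 111, against 64.4 to 65.0 in EPM and 65.3 to 66.8 in BMDM. Of these 8, 5 to 7 were also well above background in EPM and 5 or 6 in BMDM. Blnk read 15.97 in untreated EPM and 16.07 in untreated B cells. Cd22 read 10.80 in untreated EPM, and Cd79b 11.69 in BMDM with DMSO for 1 h. Of 6 T cell markers, 2 or 3 were well above background in B cells, 3 or 4 in EPM and 1 to 3 in BMDM. Neutrophil markers were detected most in BMDM, where 4 or 5 of 5 were well above background, against 2 of 5 in EPM and 1 of 5 in B cells, with sums from 39.4 to 42.0 in BMDM and 31.8 to 32.1 in EPM. In BMDM at 1 h, 3 of these 5 rose with KLA. Of 4 erythroid markers, 3 were well above background in B cells. The part of such cells in the results was not tested. In such bulk samples fewer cells of a type and less RNA per cell cannot be told apart. Between 57.4% and 65.4% of the probes were well above background in a channel. All 13 probes of the decay regulators were well above background in all 24 channels, with no outlier flag and no saturated spot.

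The probes lie on mm8 at chr7:28085873-28085932 for Zfp36, chr12:81026941-81027002 for Zfp36l1, chr17:84094775-84094834 for Zfp36l2 and chr4:124620930-124620989 for Zc3h12a. Those of the other genes lie at chr10:96048969-96049028 for Btg1, chr1:135891928-135891987 for Btg2, chr4:33574256-33574315 for Pnrc1 and chr4:135143057-135143116 for Pnrc2. Btg1 is on the plus strand and the others are on the minus strand. These are the brightest probes of each gene, which carry the values below. Zfp36, Zfp36l1 and Btg1 have 1 further probe each and Btg2 has 2. The annotation of that build was not used here, so exon and intron are not given. Levels are normalized log2 intensities on each gene's own probe and are compared between samples, never between genes.

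**Figure D1:**
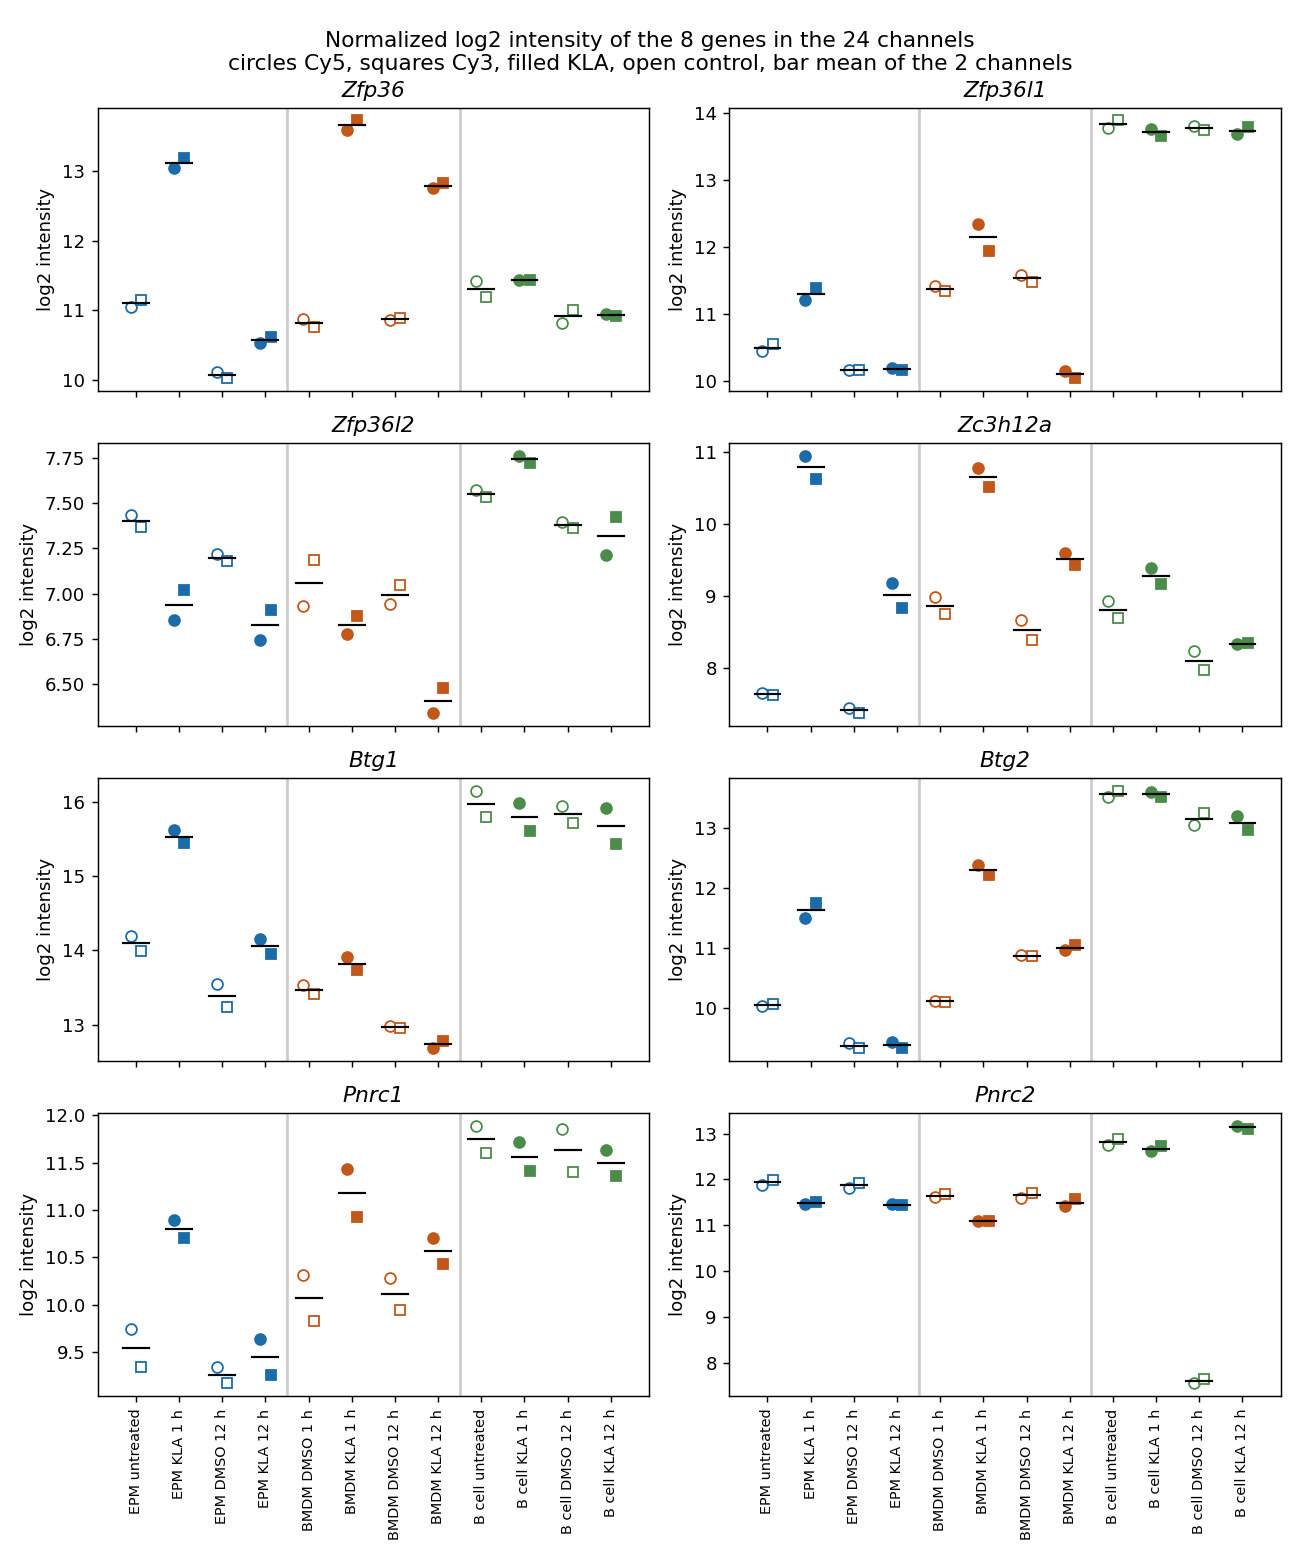
Normalized log2 intensity (vertical axis, a separate scale in each panel) of the 8 genes in the 12 conditions, with circles for Cy5, squares for Cy3, filled symbols for KLA, open symbols for controls and a bar at the mean of the 2 channels. The KLA 1 h channels of Zfp36, Zc3h12a, Btg2 and Pnrc1 stand above their controls in EPM and BMDM, and Pnrc2 is near 7.6 on the array of B cell DMSO 12 h alone.

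Among the RNA-binding proteins that act on AU-rich elements, Zfp36 was the most responsive. In untreated EPM its 2 channels read 11.05 and 11.14, and after 1 h of KLA 13.04 and 13.18. In EPM at 12 h the DMSO channels read 10.11 and 10.03 and the KLA channels 10.53 and 10.61. The KLA channels lay above the control channels at both times, but the 12 h values of both groups were below the untreated level. In BMDM the DMSO channels read 10.87 and 10.76 at 1 h and 10.86 and 10.89 at 12 h. The BMDM KLA channels read 13.59 and 13.72 at 1 h, and 12.75 and 12.82 at 12 h. The level of Zfp36 was thus still high at 12 h in BMDM and close to the control in EPM.

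On the log2 scale Zfp36 rose by 2.01 in EPM at 1 h (SE 0.08, 4.03-fold, limma adjusted p = 6.17e-13) and by 2.84 in BMDM (SE 0.08, 7.17-fold, adjusted p = 3.60e-15). At 12 h the difference was 0.50 in EPM (1.41-fold, adjusted p = 2.83e-05) and 1.91 in BMDM (3.76-fold, adjusted p = 2.02e-13). The 12 h difference in EPM depends on its control, since the level in EPM controls was itself lower at 12 h by 1.03 (limma adjusted p = 3.94e-08). Against the mean of both EPM control arrays it was -0.013 (adjusted p = 0.99). The second Zfp36 probe gave 2.21 and 0.40 in EPM and 2.76 and 2.67 in BMDM at 1 h and 12 h.

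Zfp36l1, a paralog that also binds AU-rich elements and is known for its part in B cell development, moved in opposite directions over time in BMDM. Its BMDM channels read 11.41 and 11.34 in DMSO and 12.34 and 11.95 in KLA at 1 h. At 12 h they read 11.58 and 11.48 in DMSO and 10.16 and 10.05 in KLA. The groups did not overlap at either time, with KLA above DMSO at 1 h and below it at 12 h. The log2 difference was 0.76 at 1 h (SE 0.10, limma adjusted p = 7.45e-06) and -1.43 at 12 h (SE 0.10, adjusted p = 2.31e-10), that is 0.371 of the DMSO level. In EPM the channels read 10.45 and 10.55 untreated and 11.21 and 11.39 with KLA at 1 h, a rise of 0.81 (SE 0.10, limma adjusted p = 3.62e-06). At 12 h in EPM all 4 channels of DMSO and KLA lay between 10.16 and 10.20, and the difference was 0.02 (limma adjusted p = 0.89). The second Zfp36l1 probe gave 0.90, 0.02, 0.81 and -1.48 in these comparisons (EPM 1 h, EPM 12 h, BMDM 1 h, BMDM 12 h).

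Zfp36l2, the remaining paralog on the array, is measured by the dimmest probe, at 1.54 to 5.81 times the local background. Its EPM channels read 7.43 and 7.37 untreated, 6.85 and 7.02 with KLA at 1 h, 7.22 and 7.18 in DMSO at 12 h, and 6.74 and 6.91 with KLA at 12 h. Both KLA groups lay below their controls, and the log2 difference was -0.46 at 1 h (limma adjusted p = 5.42e-04) and -0.37 at 12 h (adjusted p = 0.0015). In BMDM the channels read 6.93 and 7.18 in DMSO and 6.77 and 6.88 with KLA at 1 h, then 6.94 and 7.05 in DMSO and 6.34 and 6.48 with KLA at 12 h. The log2 difference was -0.23 at 1 h, which did not pass (limma adjusted p = 0.060, and 0.013 with the dye as a replicate block). It was -0.59 at 12 h (adjusted p = 1.14e-05). With the processed signal of the scanner the differences were larger, at -0.76 and -0.65 in EPM and -1.55 in BMDM at 12 h. A single probe reads this gene, so its change has no second measurement.

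Zc3h12a had the largest rise of the 8 genes in EPM. Its EPM channels read 7.66 and 7.63 untreated and 10.95 and 10.63 with KLA at 1 h, then 7.45 and 7.38 in DMSO and 9.18 and 8.84 with KLA at 12 h. In BMDM they read 8.98 and 8.75 in DMSO and 10.78 and 10.52 with KLA at 1 h, then 8.66 and 8.39 in DMSO and 9.61 and 9.43 with KLA at 12 h. The KLA groups lay above their controls in each case, and the 1 h KLA channels of both macrophages overlapped although the BMDM control was the higher. The log2 difference was 3.14 in EPM at 1 h (SE 0.14, 8.84-fold, limma adjusted p = 3.97e-12) and 1.60 at 12 h (3.02-fold, adjusted p = 1.59e-08). In BMDM it was 1.78 at 1 h (3.43-fold, limma adjusted p = 1.54e-08) and 0.99 at 12 h (1.98-fold, adjusted p = 5.47e-06). Of 17326 genes, 37 had a larger log2 difference than Zc3h12a in EPM at 1 h, and 47 a larger one than Zfp36 in BMDM at 1 h. The study's own list of immediate early genes holds Zfp36, Zc3h12a and Btg2. It was drawn from EPM at a limit of more than 3-fold at 1 h. The methods name Agilent or Illumina arrays and biological triplicates, against 2 replicates here. Whether exactly these arrays gave the list is therefore not certain, and it is taken as no independent evidence of their direction.

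Of the BTG genes, Btg2 responded at 1 h in both macrophages. Its EPM channels read 10.03 and 10.06 untreated and 11.51 and 11.75 with KLA at 1 h, and its BMDM channels 10.12 and 10.10 in DMSO and 12.38 and 12.21 with KLA. At 12 h the EPM channels read 9.41 and 9.33 in DMSO and 9.44 and 9.34 with KLA, and the BMDM channels 10.88 and 10.87 in DMSO and 10.97 and 11.04 with KLA. The groups were apart at 1 h in both macrophages and overlapped in EPM at 12 h. The rise at 1 h was 1.58 in EPM (SE 0.09, 2.99-fold, limma adjusted p = 1.71e-10) and 2.19 in BMDM (SE 0.09, 4.56-fold, adjusted p = 1.28e-12). At 12 h the difference was 0.02 in EPM (limma adjusted p = 0.90) and 0.13 in BMDM (adjusted p = 0.21). The other 2 probes of Btg2 gave 1.82 and 1.87 in EPM at 1 h and 1.84 and 2.05 in BMDM. At 12 h they gave 0.41 (limma adjusted p = 7.42e-05) and 0.17 (adjusted p = 0.15) in EPM, and 0.46 (adjusted p = 1.41e-05) and 0.24 (adjusted p = 0.041) in BMDM, so the 12 h call for Btg2 depends on the probe.

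Btg1 rose in EPM. Its EPM channels read 14.20 and 13.99 untreated and 15.62 and 15.44 with KLA at 1 h, then 13.54 and 13.23 in DMSO and 14.15 and 13.95 with KLA at 12 h. The log2 difference was 1.44 at 1 h (SE 0.16, 2.71-fold, limma adjusted p = 1.31e-06) and 0.66 at 12 h (1.58-fold, adjusted p = 0.0016). In BMDM the channels read 13.53 and 13.41 in DMSO and 13.91 and 13.73 with KLA at 1 h, then 12.99 and 12.96 in DMSO and 12.68 and 12.78 with KLA at 12 h. KLA was above DMSO at 1 h and below it at 12 h, but neither difference passed the test on this probe, at 0.35 (limma adjusted p = 0.11) and -0.24 (adjusted p = 0.20). With the dye as a replicate block they had adjusted p = 0.0033 and 0.021. The second Btg1 probe, nearer the start of the gene, gave 0.64 at 1 h (limma adjusted p = 4.60e-04) and 0.58 at 12 h (adjusted p = 3.15e-04) in BMDM. The 2 probes of Btg1 therefore disagree in sign in BMDM at 12 h, and no direction is given there.

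The PNRC proteins share a name and a short proline-rich motif and moved in opposite directions. Pnrc1 read 9.74 and 9.35 in untreated EPM and 10.89 and 10.71 with KLA at 1 h, and in BMDM 10.32 and 9.83 in DMSO and 11.44 and 10.93 with KLA. KLA was above the control in both, by 1.25 in EPM (SE 0.21, 2.39-fold, limma adjusted p = 1.63e-04) and 1.11 in BMDM (SE 0.21, 2.16-fold, adjusted p = 5.97e-04). At 12 h the EPM channels of Pnrc1 overlapped, at 9.35 and 9.17 in DMSO and 9.64 and 9.26 with KLA. In BMDM at 12 h they were apart, at 10.28 and 9.94 in DMSO and 10.71 and 10.44 with KLA. The difference was 0.19 in EPM (limma adjusted p = 0.48) and 0.46 in BMDM (adjusted p = 0.066). The Cy5 channel of Pnrc1 was above the Cy3 channel on each array, and with the dye as a replicate block these had adjusted p = 0.022 and 3.47e-06.

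Pnrc2 read 11.88 and 11.99 in untreated EPM and 11.46 and 11.51 with KLA at 1 h, then 11.81 and 11.93 in DMSO and 11.46 and 11.44 with KLA at 12 h. In BMDM it read 11.61 and 11.68 in DMSO and 11.09 in both KLA channels at 1 h, then 11.60 and 11.70 in DMSO and 11.42 and 11.57 with KLA at 12 h. KLA was below the control in each case. Pnrc2 fell by 0.45 in EPM at 1 h (limma adjusted p = 6.40e-05), by 0.42 in EPM at 12 h (adjusted p = 5.19e-05) and by 0.55 in BMDM at 1 h (adjusted p = 7.31e-06). In BMDM at 12 h its difference was -0.15 (limma adjusted p = 0.060, and 0.016 with the dye as a replicate block).

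**Figure D2:**
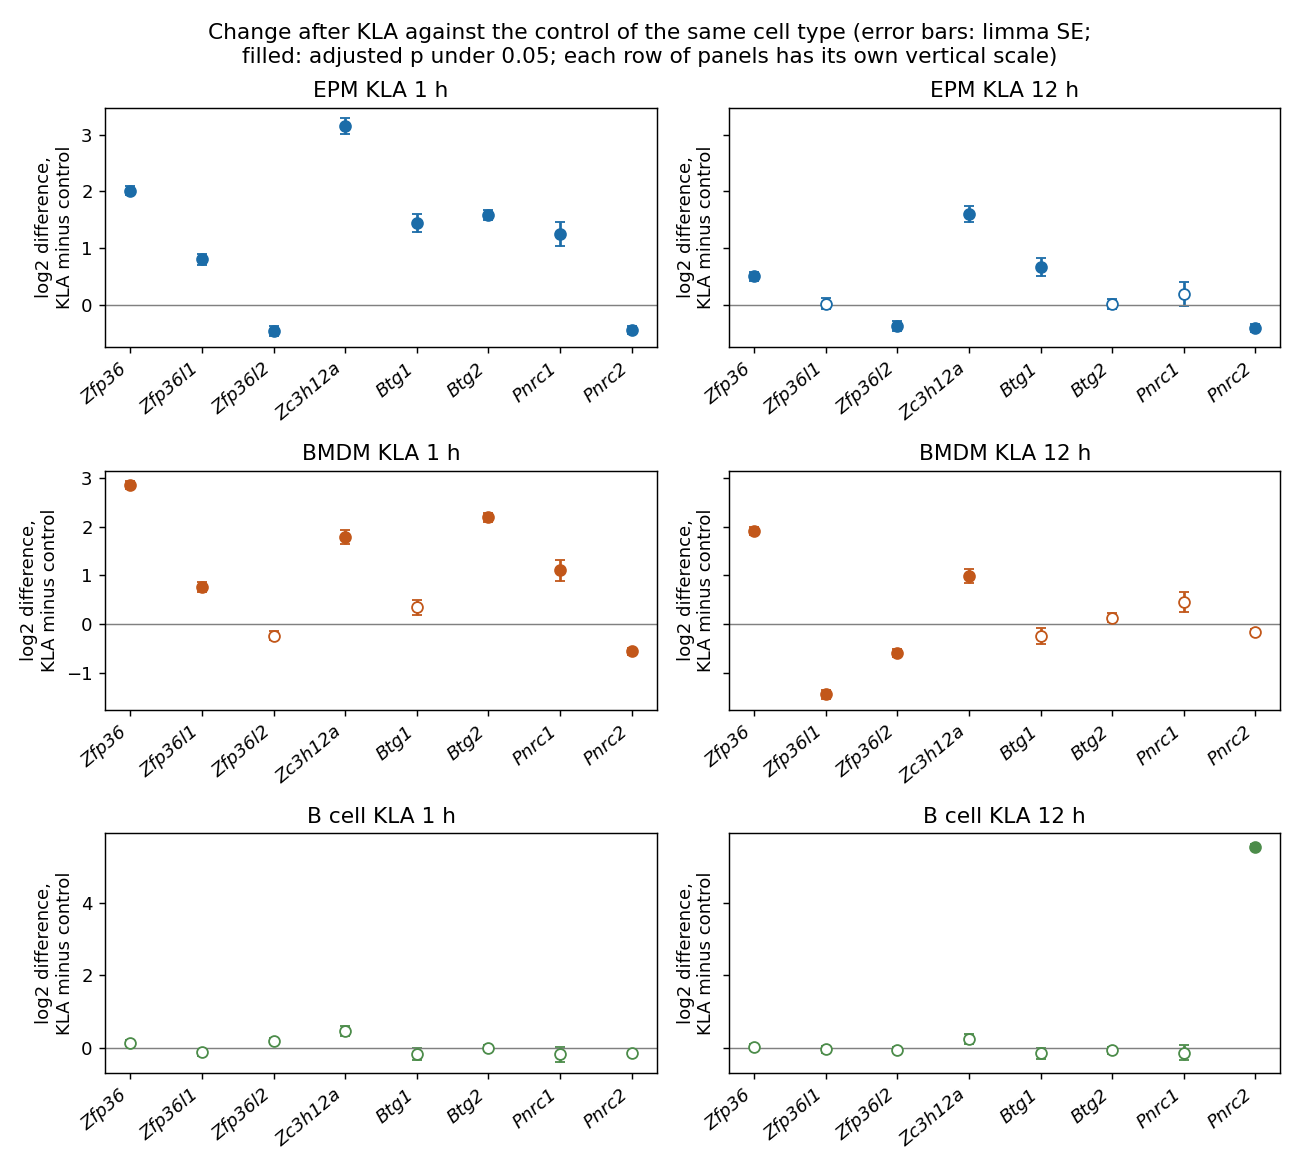
Log2 difference between KLA and the control of the same cell type (untreated at 1 h in EPM and B cells, DMSO otherwise) for each gene (vertical axis, a separate scale for each cell type), with limma SE as error bars and filled points where the adjusted p was under 0.05. At 1 h in EPM the 8 differences run from -0.46 for Zfp36l2 to 3.14 for Zc3h12a. The B cell panels carry the labels of the scanner files. In them Pnrc2 at 12 h is at 5.54, and the largest other rise is 0.46 for Zc3h12a at 1 h.

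Counted over the 8 genes, 6 rose and 2 fell in EPM at 1 h, where 9.39% of all genes tested rose and 19.7% fell. In BMDM at 1 h, 5 rose and 1 fell (Pnrc2), against 11.0% and 17.6% of all genes. At 12 h in EPM 3 rose (Zfp36, Zc3h12a and Btg1) and 2 fell (Zfp36l2 and Pnrc2), against 19.6% and 34.3% of all genes. At 12 h in BMDM 2 rose (Zfp36 and Zc3h12a) and 2 fell (Zfp36l1 and Zfp36l2), against 28.6% and 36.4%. The median log2 difference of the 8 genes was 1.35 in EPM and 0.94 in BMDM at 1 h, beside -0.05 and -0.03 over all genes, and 0.11 and -0.01 at 12 h, beside -0.06 and -0.02. The share rising at 1 h was thus far above the background, while the 12 h counts were closer to it. The 8 genes were chosen with earlier results of these data known, so this excess is no independent evidence about them. With the dye as a replicate block, 7 of the 8 passed in BMDM at 12 h, where 71.0% of all genes did. Without quantile normalization between arrays, the genes that rose made up 46.4% of all called genes in EPM at 12 h, against 36.3%, and 29.8% in BMDM at 12 h, against 44.1%. In the authors' table they made up 46.2% in EPM at 1 h, against 32.3%, and 50.8% in BMDM at 1 h, against 38.4%.

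When the array was the sample, fewer calls remained. Zc3h12a (adjusted p = 0.029) and Pnrc1 (adjusted p = 0.036) passed in EPM at 1 h, where 0.952% of all genes did, and none of the 8 passed in BMDM at 1 h, where 0.571% did. The log2 differences of Zfp36 in that fit were 2.53 in EPM and 2.81 in BMDM at 1 h, with adjusted p = 0.11 and 0.095, on 3 residual degrees of freedom. At an unadjusted p under 0.05, 6 of the 8 passed in EPM and 5 in BMDM at 1 h. The share of all genes at that limit is not given here for any comparison. Such counts are therefore not read as results about the 8. At 12 h Zfp36, Zfp36l1 and Zfp36l2 passed in BMDM (21.1% of all genes), and none of the 8 passed in EPM (11.6% of all genes), where 2 had an unadjusted p under 0.05. No call in these 4 comparisons was lost when 1 channel was left out.

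Whether EPM and BMDM responded differently was tested as the difference between their log2 responses. At 1 h, 4 of the 8 genes passed, where 9.58% of all genes did. Zc3h12a (1.37, SE 0.20, limma adjusted p = 1.12e-04) and Btg1 (1.09, SE 0.22, adjusted p = 0.0032) had the larger response in EPM. Zfp36 (-0.83, SE 0.11, limma adjusted p = 4.96e-05) and Btg2 (-0.61, SE 0.13, adjusted p = 0.0039) had the larger response in BMDM. The second probes of Zfp36 (-0.55) and Btg1 (1.08) also passed, but the other probes of Btg2 gave -0.02 and -0.18 and did not (limma adjusted p = 0.96 and 0.50). At 12 h, 5 of the 8 passed, where 47.8% of all genes did. Zfp36l1 (1.45, SE 0.14, limma adjusted p = 8.82e-08), Btg1 (0.90, SE 0.22, adjusted p = 0.0028) and Zc3h12a (0.61, SE 0.20, adjusted p = 0.017) lay higher in EPM. Zfp36 lay lower, by 1.41 (SE 0.11, adjusted p = 9.50e-09), and so did Pnrc2 at -0.26 (adjusted p = 0.037). Pnrc1 did not pass (-0.27, limma adjusted p = 0.49, and 0.026 with the dye as a replicate block). Zfp36l2 did not pass either (0.21, limma adjusted p = 0.18), but did with the processed signal (0.90, adjusted p = 0.0093) and without quantile normalization (0.32, adjusted p = 0.038). Without quantile normalization between arrays the median of all genes moved by 0.19 in this comparison, and Pnrc2 was at 0.060. Among all called genes 76.6% were then higher in EPM, against 48.5%. The call of Zc3h12a at 12 h was lost without the Cy5 channel of BMDM DMSO (0.47), the Cy3 channel of BMDM KLA (0.52), the Cy3 channel of EPM DMSO (0.57) or the Cy5 channel of EPM KLA (0.44), and that of Pnrc2 without 1 of 5 channels (-0.27 to -0.18). No gene of the 8 passed with the array as the sample, although 1 at 1 h and 2 at 12 h had an unadjusted p under 0.05. The share of all genes that passed in that fit is not given here. The early controls of EPM and BMDM differ in solvent.

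**Figure D3:**
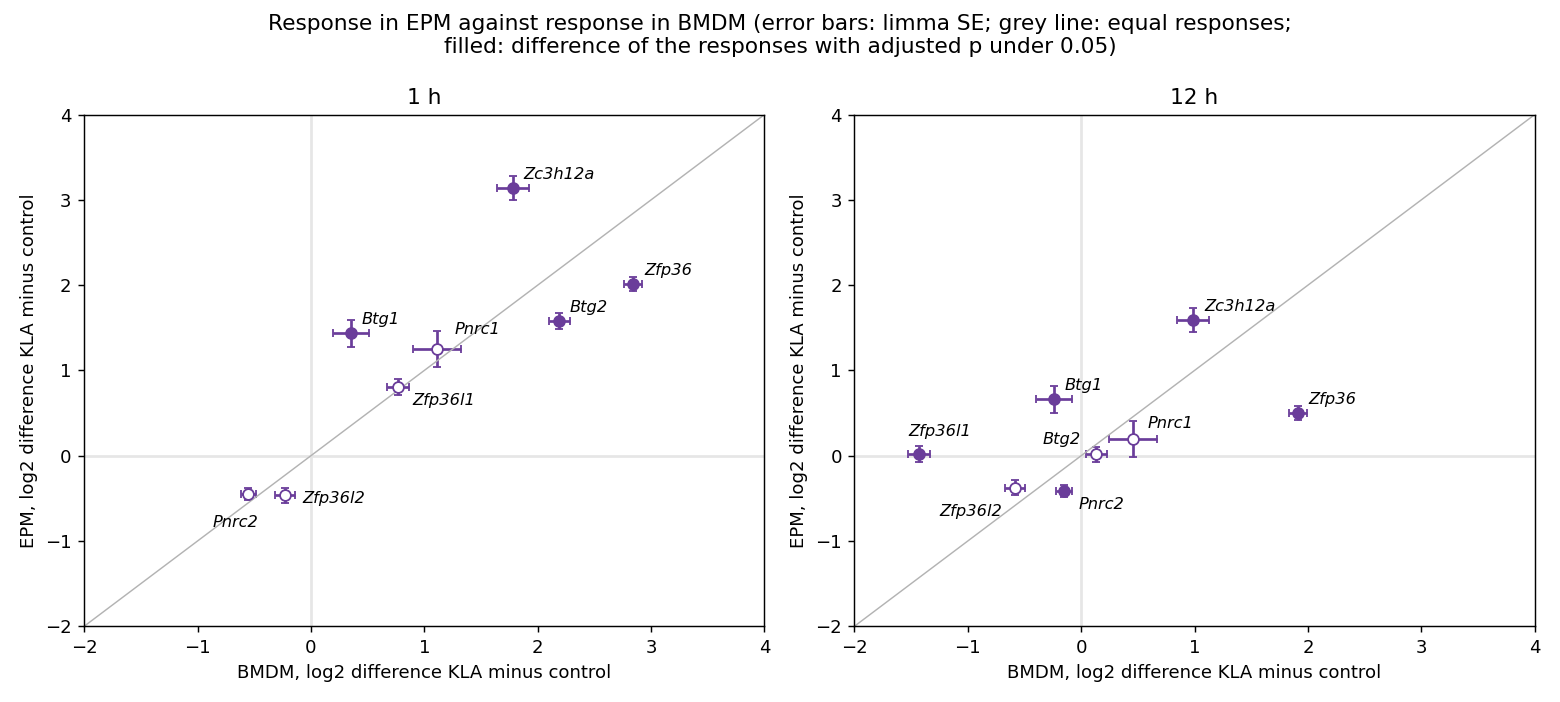
Log2 response to KLA in EPM (vertical axis) against that in BMDM (horizontal axis) at 1 h and 12 h, with limma SE as error bars, a grey line at equal responses and filled points where the difference between the responses had an adjusted p under 0.05. Zc3h12a and Btg1 lie above the line at both times and Zfp36 below it, while Zfp36l1 lies near the line at 1 h and far above it at 12 h.

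The change of the response from 1 h to 12 h was tested in the same way. In EPM 6 of the 8 genes had a smaller value at 12 h, where 24.3% of all genes did. The change was -1.57 for Btg2 (limma adjusted p = 1.17e-08) and -1.55 for Zc3h12a (adjusted p = 4.01e-06). It was -1.51 for Zfp36 (limma adjusted p = 2.78e-09), and nearer 0 for Pnrc1 at -1.06, Zfp36l1 at -0.79 and Btg1 at -0.77. In BMDM 7 of the 8 changed, where 54.4% of all genes did. Zfp36l1 dropped by 2.19 (limma adjusted p = 1.71e-10) and Btg2 by 2.06 (adjusted p = 1.84e-10). Zfp36 (-0.93), Zc3h12a (-0.79), Btg1 (-0.59) and Zfp36l2 (-0.35) also dropped, and Pnrc2 moved up by 0.40. Pnrc1 did not pass (-0.65, limma adjusted p = 0.076), but had adjusted p = 4.77e-06 with the dye as a replicate block. The second Zfp36 probe gave -0.09 in BMDM (limma adjusted p = 0.42), and the second Btg1 probe -0.06 (adjusted p = 0.78), so for these genes the BMDM result rests on the brighter probe. The BMDM calls of Btg1 and Zfp36l2 were lost when 1 channel was left out, with 5 different channels for Btg1 (values from -0.60 to -0.50) and 4 for Zfp36l2 (-0.30 to -0.23). The EPM call of Btg1 was lost without the Cy5 channel of DMSO 12 h (-0.62, limma adjusted p = 0.053).

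**Figure D4:**
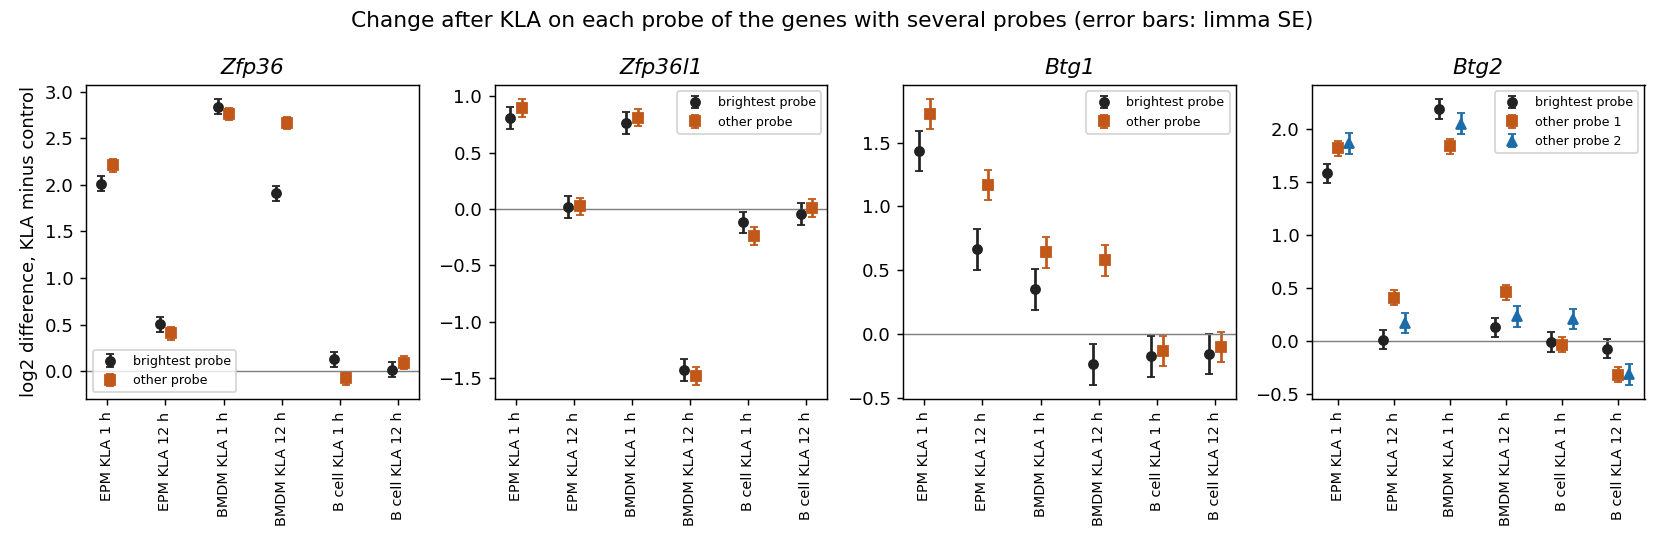
Log2 difference between KLA and control (vertical axis) on each probe of the 4 genes with several probes, in the 6 comparisons, with limma SE as error bars. The probes of Zfp36l1 lie together throughout, and those of Btg1 lie on either side of 0 in BMDM at 12 h, at -0.24 and 0.58.

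In unstimulated cells the 8 genes were arranged differently across cell types. Zfp36 read 11.05 and 11.14 in untreated EPM, 10.87 and 10.76 in BMDM with DMSO for 1 h, and 11.42 and 11.19 in untreated B cells. Zfp36l1 read 10.45 and 10.55 in EPM, 11.41 and 11.34 in BMDM, and 13.77 and 13.89 in B cells. Btg2 read 10.03 and 10.06 in EPM, 10.12 and 10.10 in BMDM, and 13.51 and 13.62 in B cells. Zfp36 was thus near one level in all 3 cell types, while Zfp36l1 and Btg2 were far higher in B cells. Btg1 read 15.80 and 16.15 in B cells against 14.20 and 13.99 in EPM and 13.53 and 13.41 in BMDM. Pnrc1 read 11.88 and 11.60 in B cells, 9.74 and 9.35 in EPM and 10.32 and 9.83 in BMDM. Pnrc2 read 12.76 and 12.88 in B cells, 11.88 and 11.99 in EPM and 11.61 and 11.68 in BMDM. For these 3 genes the order was headed by B cells too. Zc3h12a read 8.93 and 8.70 in B cells and 8.98 and 8.75 in BMDM, which overlap, and 7.66 and 7.63 in EPM. Zfp36l2 read 7.57 and 7.53 in B cells, 7.43 and 7.37 in EPM and 6.93 and 7.18 in BMDM.

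Against B cells, 7 of the 8 genes were lower in EPM, where 38.5% of all genes were. Of 66 other genes of mRNA decay 54 were lower too, with a median of -0.88, among them 12 of 13 deadenylases and 8 of 8 nonsense-mediated decay genes. The log2 difference was -3.51 for Btg2 (limma adjusted p = 4.02e-17), -3.33 for Zfp36l1 (adjusted p = 2.28e-16), -2.20 for Pnrc1, -1.88 for Btg1, -1.17 for Zc3h12a and -0.88 for Pnrc2. For Zfp36 it was -0.21 (limma adjusted p = 0.024), which was 0.041 without quantile normalization, and -0.09 (adjusted p = 0.35) without the Cy5 channel of untreated B cells. It was -0.16 (adjusted p = 0.15) without the Cy5 channel of untreated EPM. Zfp36l2 did not pass (-0.15, limma adjusted p = 0.13). Against BMDM, 7 of the 8 differed, where 57.8% of all genes did. Zc3h12a (-1.22, limma adjusted p = 5.23e-07), Zfp36l1 (-0.88, adjusted p = 2.75e-07) and Pnrc1 (-0.53, adjusted p = 0.040) were lower in EPM, and Btg1 (0.63), Zfp36l2 (0.35), Pnrc2 (0.29) and Zfp36 (0.28) were higher. Btg2 did not pass (-0.06, limma adjusted p = 0.60). The calls of Zfp36, Zfp36l2 and Pnrc1 were lost when 1 channel was left out (for Pnrc1 -0.29 without the Cy5 channel of BMDM DMSO 1 h and -0.33 without the Cy3 channel of untreated EPM). For Zfp36 the value was 0.23 without the Cy3 channel of BMDM DMSO 1 h and 0.24 without that of untreated EPM, and for Zfp36l2 0.22 without the Cy5 channel of BMDM DMSO 1 h. The second Zfp36 probe gave 0.04 (limma adjusted p = 0.65) against BMDM and -0.51 (adjusted p = 1.22e-06) against B cells. With the processed signal Zfp36 did not pass against either (0.058 and -0.23). BMDM and B cells were not tested against each other.

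The controls also differed between the early and the 12 h arrays. In EPM the early control was untreated and the later one had DMSO, so time, solvent and array cannot be told apart. In EPM 4 of the 8 genes were lower with DMSO at 12 h than in untreated cells, where 8.32% of all genes were. These were Zfp36 (-1.03), Btg1 (-0.71, limma adjusted p = 0.0035), Btg2 (-0.68, adjusted p = 2.84e-05) and Zfp36l1 (-0.34, adjusted p = 0.020). With the dye as a replicate block 7 of the 8 passed, where 29.7% of all genes did, the added ones being Pnrc1 (-0.28), Zc3h12a (-0.23) and Zfp36l2 (-0.20). Where a call was lost without 1 of the 4 channels, Zfp36l1 was at -0.34, -0.28 or -0.33 and Btg1 at -0.61 or -0.55. Without the Cy3 channel of DMSO 12 h, both were lost, with Btg1 at -0.55 (limma adjusted p = 0.061) and Zfp36l1 at -0.33 (adjusted p = 0.079). In BMDM, with DMSO at both times, Btg2 was higher at 12 h by 0.77 (limma adjusted p = 6.34e-06) and Btg1 lower by 0.50 (-0.50, adjusted p = 0.030), where 23.2% of all genes differed. Zfp36 did not pass on its brightest probe (0.06), but was lower on the second (-0.37, adjusted p = 4.94e-04). That call of Btg1 was lost without any 1 of the 4 channels, with values from -0.56 to -0.44. Zc3h12a (-0.34, limma adjusted p = 0.093) passed with the dye as a replicate block (adjusted p = 6.91e-04). The direction of Btg2 thus differed between the controls of the 2 macrophages, and that difference was not tested.

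In B cells the response of the 8 genes was small under the labels of the scanner files. At 1 h none passed, where 2.72% of all genes rose and 2.45% fell by limma's test, and 2 of the 8 had an unadjusted p under 0.05. The largest difference was that of Zc3h12a, which read 8.93 and 8.70 untreated and 9.39 and 9.17 with KLA (0.46, limma adjusted p = 0.067). With the dye as a replicate block it passed (adjusted p = 1.29e-04), as the only gene of the 8, where 13.9% of all genes did. The other 7 differences lay between -0.18 for Pnrc1 and 0.19 for Zfp36l2. Without quantile normalization 15.8% of the called genes were higher in this comparison, against 52.6%.

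At 12 h in B cells 1 gene of the 8 passed, where 2.81% of all genes rose and 2.45% fell, and it rests on 1 spot. Pnrc2 read 7.55 and 7.65 in DMSO and 13.16 and 13.11 with KLA, a log2 difference of 5.54. On the other 3 B cell arrays its channels lay between 12.62 and 13.16. The array holds a single spot for this gene, and the low value is shared by both dyes of that spot. The pixels of the spot varied by 54.8% and 56.6% (CV) on that array and by 6.51% to 17.0% on the other 11 arrays, and no flag was set. Of 43379 spots that are not controls, it was the only one so far below the other 3 B cell arrays in both dyes. A change in the cells and a fault of the spot cannot be told apart from 1 spot. With Pnrc2 left out, a choice made after seeing the data, none of the other 7 passed at 12 h, and their differences lay between -0.16 for Btg1 and 0.24 for Zc3h12a. With the dye as a replicate block Zc3h12a passed beside Pnrc2 (adjusted p = 0.034), so 2 of the 8 did, where 11.1% of all genes did. With the probes of a gene averaged, Btg2 passed as well, at -0.23 (adjusted p = 0.012), and 1 of its 3 probes passed alone at -0.32 (adjusted p = 0.011). With the array as the sample none of the 8 passed at either time, and none had an unadjusted p under 0.05. The share of all genes that passed in that fit is not given here.

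With the labels KLA 1 h and DMSO 12 h exchanged, the B cell picture was another one. At 1 h 4 of the 8 genes were lower with KLA, where 47.4% of all genes differed in either direction. These were Zc3h12a (-0.71, limma adjusted p = 3.60e-04), Btg2 (-0.42, adjusted p = 8.68e-04), Zfp36 (-0.39, adjusted p = 4.50e-04) and Pnrc2 (-5.22, the spot above). At 12 h 5 of the 8 passed, where 49.2% did. Zc3h12a (-0.93, limma adjusted p = 2.07e-05), Zfp36 (-0.50, adjusted p = 3.55e-05), Btg2 (-0.48, adjusted p = 2.27e-04) and Zfp36l2 (-0.42, adjusted p = 5.85e-04) were lower and Pnrc2 (0.46) was higher. The members' share was close to that of all genes at 1 h and somewhat above it at 12 h. The change of the control over time in B cells depends on the same labels. It too compares DMSO with untreated cells, so time and solvent cannot be told apart. As labelled, Zc3h12a, Btg2, Zfp36 and Pnrc2 were lower at 12 h, with the values just given for 1 h, where 22.4% of all genes were. All 3 tested erythroid markers fell with them (median -1.09), 2 of 8 macrophage markers rose and 2 fell, 1 of 5 T cell markers rose (Lck), and 6 of 8 B cell markers rose. The part of other cells in this change was not tested. Zfp36l2 (-0.17, limma adjusted p = 0.12) passed with the dye as a replicate block (adjusted p = 0.045). With the labels exchanged none of the 8 passed, where 5.18% did, and 2 had an unadjusted p under 0.05. No direction in B cells is therefore given for Zfp36, Zc3h12a or Btg2.

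Of the other genes of the decay machinery, grouped by function and without the cytokine targets, 66 were tested. In EPM at 1 h 9 of the 66 rose and 18 fell, and in BMDM 7 rose and 15 fell, with medians of -0.08 and -0.09. At 12 h 13 rose and 22 fell in EPM, and 22 rose and 28 fell in BMDM. The shares of all genes in these comparisons are those given above for the 8 regulators.

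Among the binding proteins and the enzymes upstream, the named genes were those with the largest differences in each comparison. Zc3h12c, a relative of Regnase-1, rose by 3.11 in EPM and 2.81 in BMDM at 1 h and by 2.39 in EPM at 12 h. Dusp1, a phosphatase that turns off p38, rose by 3.65 in EPM and 2.74 in BMDM at 1 h and by 1.59 in BMDM at 12 h. Mapkapk2, the kinase that phosphorylates tristetraprolin below p38, rose by 0.87 in EPM and 0.82 in BMDM at 1 h. Zc3h12d (-0.62) and Tob2, a BTG relative (-0.55), fell in BMDM at 1 h. Tial1, which binds U-rich elements, fell by 0.91 in EPM at 12 h. Their limma adjusted p-values lay at 0.0028 or below.

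Among the enzymes that carry out decay, the exosome digests the mRNA from its tail end. Of 13 genes of the exosome and Ski complexes, 1 rose and 6 fell in EPM and none rose and 6 fell in BMDM at 1 h, where 19.7% and 17.6% of all genes fell. At 12 h 3 rose and 3 fell in EPM, and 1 rose and 9 fell in BMDM, where 34.3% and 36.4% of all genes fell, with medians of -0.07 and -0.72. Exosc6 (-2.09), Exosc5 (-1.64) and Exosc8 (-1.58) fell in BMDM at 12 h, and Exosc5 (-1.04) in EPM. Exosc1 fell by 0.43 in EPM at 1 h. The decapping enzyme Dcp2 rose by 1.76 in EPM and 1.53 in BMDM at 12 h. The decapping factors Lsm1 (-0.68) and Edc3 (-0.46) fell in EPM at 1 h, and Lsm1 (-0.51) in BMDM. Of 13 deadenylase genes, which include the CCR4-NOT subunits that ZFP36 and BTG proteins recruit, 2 rose and 2 fell at 1 h in each macrophage. At 12 h none rose and 5 fell in EPM, among them Cnot6l (-0.74), and 3 rose and 5 fell in BMDM. The genes named here had limma adjusted p-values of 0.0015 or below.

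All 10 listed mRNAs that TTP or Regnase-1 is known to target rose with KLA in both macrophages at both times. In EPM at 1 h the log2 differences were 7.71 for Il1b, 7.24 for Cxcl1, 6.78 for Cxcl2, 6.73 for Tnf, 6.23 for Nfkbiz, 3.32 for Il10, 3.07 for Il6, 2.97 for Ptgs2, 2.51 for Csf2 and 1.54 for Il12b. In BMDM at 1 h they were 6.87 for Cxcl1, 6.07 for Il6, 6.02 for Cxcl2, 5.83 for Il1b, 3.95 for Tnf, 3.63 for Il12b, 3.22 for Nfkbiz, 2.70 for Ptgs2, 2.23 for Il10 and 1.72 for Csf2. From 1 h to 12 h the response of 7 of the 10 dropped and that of 3 grew in EPM by the test of the difference, as in BMDM. In EPM at 12 h they were 6.97 for Il1b, 5.75 for Tnf, 4.07 for Cxcl2, 3.75 for Ptgs2, 3.45 for Il6, 3.30 for Cxcl1, 2.26 for Nfkbiz, 2.16 for Il12b, 1.32 for Il10 and 0.58 for Csf2. In BMDM at 12 h they were 5.21 for Il6, 4.88 for Il1b, 4.32 for Il12b, 3.28 for Ptgs2, 2.93 for Il10, 2.38 for Cxcl2, 1.97 for Tnf, 1.97 for Cxcl1, 1.12 for Nfkbiz and 0.17 for Csf2. At 1 h 6 of the 8 regulators in EPM and 5 in BMDM thus rose together with these targets. Zfp36l2 and Pnrc2 fell in EPM, and Pnrc2 fell in BMDM. No relation between regulators and targets was tested.

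**Figure D5:**
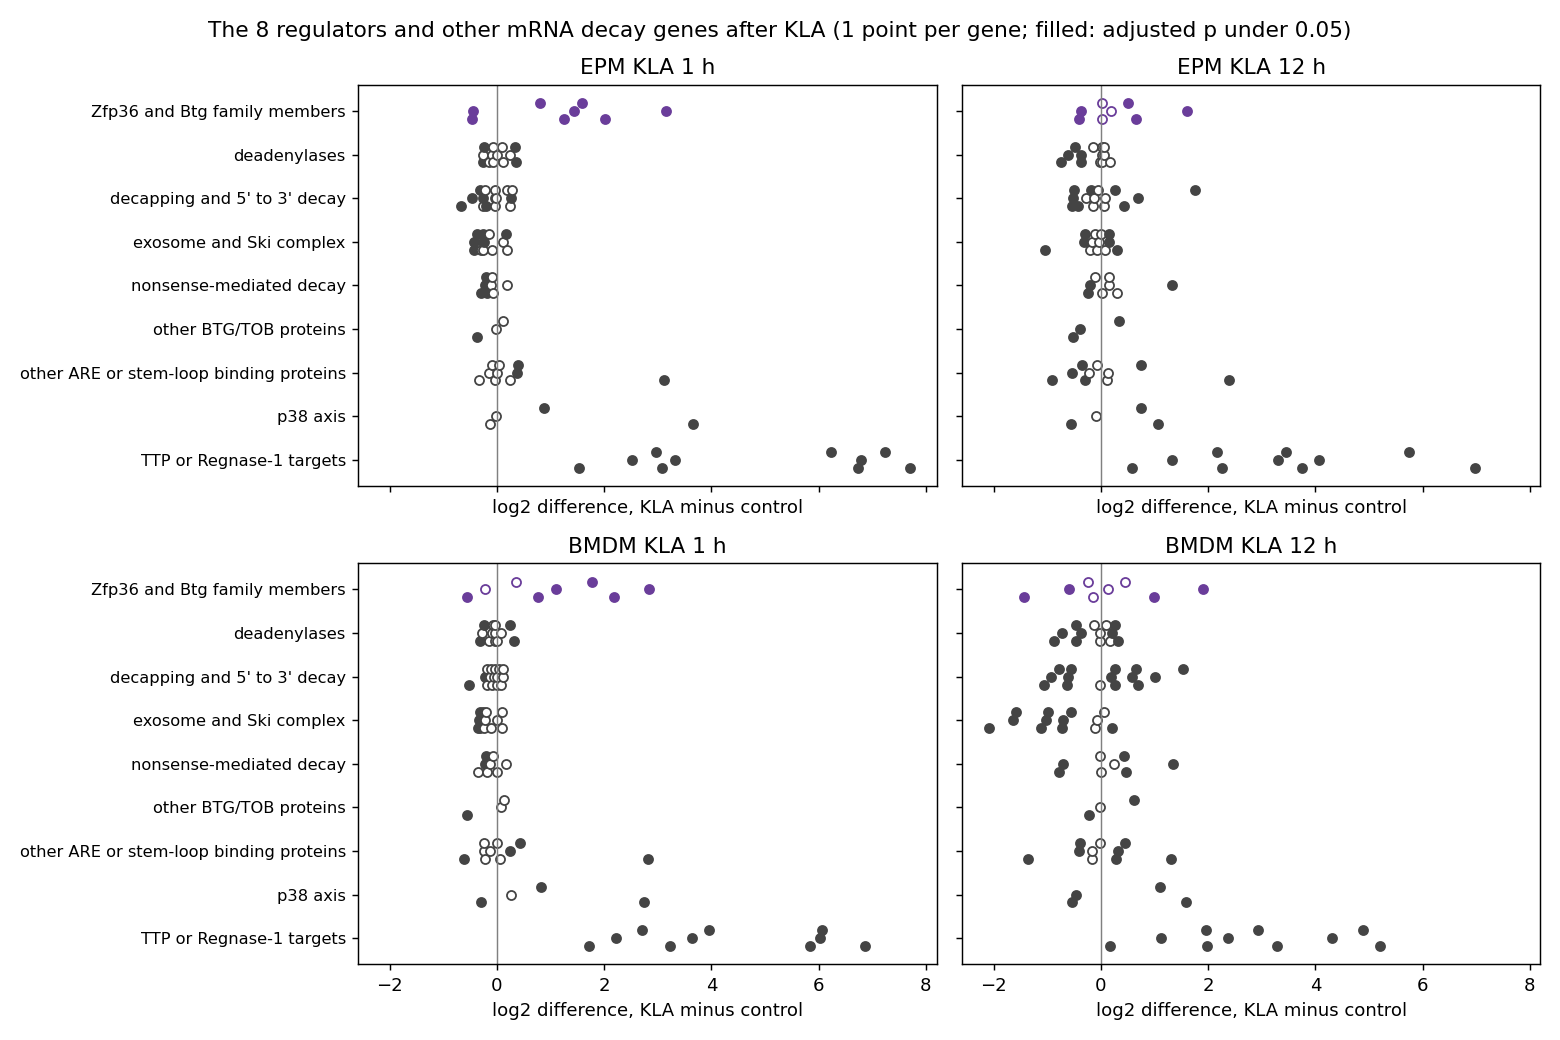
Log2 difference between KLA and control (horizontal axis) of the 8 regulators and of the listed mRNA decay genes and targets (1 point per gene, 1 row per list) in the 4 macrophage comparisons, filled where the adjusted p was under 0.05. At 1 h the regulators reach 3.14 in EPM and 2.84 in BMDM, and the targets reach 7.71 for Il1b and 6.87 for Cxcl1. The medians of the deadenylase, decapping and exosome lists lie between -0.26 and -0.04 at 1 h. Lsm1 of the decapping list is then at -0.68 in EPM and -0.51 in BMDM.

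Over the means of the 12 conditions, centred on each cell type, Zfp36, Zc3h12a, Btg2 and Pnrc1 had correlations of 0.81 or more with each other. Pearson's r was 0.95 between Zfp36 and Pnrc1, 0.95 between Btg2 and Pnrc1, 0.93 between Zfp36 and Btg2 and 0.88 between Zc3h12a and Pnrc1. Btg1 was at 0.83 with Pnrc1, 0.81 with Zc3h12a, 0.77 with Btg2 and 0.69 with Zfp36. Zfp36l1 was closest to Btg1 (0.78) and Zfp36l2 was at or below 0.36 with each other gene of the 8. These values describe 12 points that share slides and controls. The genes most like Zfp36 among all tested were Klf6 (0.97), Ccnl1 (0.96) and Dusp2 (0.96). Those most like Zc3h12a were Junb (0.98), Pvr (0.98) and Clcf1 (0.98), and those most like Btg2 were Ptger4 (0.95), Kremen1 (0.95) and Pnrc1. Pnrc1 was closest to Rnf2 (0.98), 9430083I22 (0.97) and F3 (0.97). Zfp36l1 was closest to Rai14 (0.98), Hmgb2 (0.97) and Nrap (0.97), Zfp36l2 to Frat1 (0.97), Mettl9 (0.97) and Akt1 (0.97), and Btg1 to Tnfsf14 (0.94), 5230400M03Rik (0.92) and 9430083I22 (0.92). The pattern of Pnrc2 is set by its 1 low spot and is not compared.

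The promoters of Zfp36, Zc3h12a, Btg2 and Pnrc1 are shown because these genes had the most similar patterns, as the 250 bases before the transcription start in RefSeq, build GRCm38.p6, read along the gene. The set of windows used here held 7 of the 8 genes, without Zfp36l2. Capitals mark matches to 6 motifs, each searched on both strands: the TATA box (TATAAA), the CArG box of serum response factor, the NF-κB consensus, the cyclic AMP response element (TGACGTCA), the AP-1 site (TGACTCA) and the core of the interferon-stimulated response element (a pair of GAAA repeats with 2 bases between).
Zfp36 (chr7:28379229-28379478, minus strand): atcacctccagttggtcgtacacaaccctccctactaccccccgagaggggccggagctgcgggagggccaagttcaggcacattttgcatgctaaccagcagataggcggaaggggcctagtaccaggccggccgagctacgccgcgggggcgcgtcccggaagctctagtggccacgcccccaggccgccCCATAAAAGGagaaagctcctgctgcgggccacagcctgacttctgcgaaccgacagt
Zc3h12a (chr4:125127882-125128131, minus strand): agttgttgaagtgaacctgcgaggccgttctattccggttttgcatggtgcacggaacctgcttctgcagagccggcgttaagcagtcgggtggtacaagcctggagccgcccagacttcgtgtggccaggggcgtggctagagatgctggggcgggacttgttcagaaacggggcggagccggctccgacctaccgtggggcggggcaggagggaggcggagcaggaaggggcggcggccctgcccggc
Btg2 (chr1:134079156-134079405, minus strand): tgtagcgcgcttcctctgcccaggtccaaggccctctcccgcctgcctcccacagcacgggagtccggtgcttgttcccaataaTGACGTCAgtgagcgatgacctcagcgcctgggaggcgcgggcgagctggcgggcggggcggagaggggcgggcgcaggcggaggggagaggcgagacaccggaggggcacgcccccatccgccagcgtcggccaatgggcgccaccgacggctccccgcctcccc
Pnrc1 (chr4:33248788-33249037, minus strand): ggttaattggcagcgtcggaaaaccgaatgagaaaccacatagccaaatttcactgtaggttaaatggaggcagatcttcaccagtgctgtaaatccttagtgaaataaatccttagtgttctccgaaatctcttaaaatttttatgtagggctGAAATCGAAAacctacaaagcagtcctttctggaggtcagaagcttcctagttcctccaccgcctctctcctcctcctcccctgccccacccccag
Zfp36 holds a CArG box, CCATAAAAGG, which starts 58 bases before the transcription start. Of 32841 such windows, 1.47% hold a CArG box. Btg2 holds a cyclic AMP response element 166 bases before the start (1.55% of windows), and Pnrc1 a match to the interferon-stimulated core, GAAATCGAAA, 96 bases before it (2.98%). In Zc3h12a none of the 6 motifs was found within these letters. Of the other genes with a window, Zfp36l1 and Btg1 hold a TATA box, 29 and 26 bases before the start (12.4% of windows), and Pnrc2 holds none of the 6. The NF-κB consensus, in 3.90% of windows, and the AP-1 site, in 4.46%, were found in none of the 7. These 4 genes thus share no motif of the 6 in these windows, and a match or its absence says nothing of which factor was bound in these cells.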

How the data were processed

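Total RNA was labelled with Cy5 and Cy3 and hybridised to 12 Agilent arrays (24 channels, 12 conditions, 3 slides). The authors deposited, per spot, mean and background intensity from Feature Extraction 9.5.3.1, used here, and a table of normalized intensity values, used as an alternative, whose normalization is not given in the sources used here. The methods refer to several statistical approaches, cited elsewhere, and do not spell out a test. Background was corrected with normexp (offset 50), controls were left out, and loess within arrays and Aquantile between arrays were applied. Outlier spots were set missing (92 missing values). The brightest probe stood for a gene, kept if well above background in both channels of 1 condition, which left 17326 genes. limma 3.58.1 in R 4.3.3 was fitted to all channels with 1 coefficient per condition (12 residual degrees of freedom), Benjamini-Hochberg adjustment over all genes and a threshold of 0.05. The fit was tested on simulated data for EPM at 1 h: of 17326 genes, 100 of 100 changed 2-fold and 100 of 100 changed 4-fold were recovered, with 15 false calls. This does not show how many calls in the real data come from differences between arrays, since each condition lies on 1 array.

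The 2 dyes of an array held different replicates. Their difference correlated between all 66 pairs of arrays (r from 0.26 to 0.63), so the dye pairs the channels, and the fit with the dye as a replicate block is given where it changed a call. The channels of an array differed with an SD of 0.116 to 0.199 over 66 probes with 10 spots (standard error from spots 0.022 to 0.033), in which dye and replicate cannot be told apart. Precision is limited by how far a probe lies above its background and by there being 1 array per condition.

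All 8 genes were named, the pathway genes were the 3 largest increases and decreases per macrophage comparison, and targets were named in full. A pathway gene that this rule names is not reported here. The 8 genes and all lists were chosen with earlier results of these data known. Alternatives were another offset (16), the processed signal, no normalization between arrays, the authors' table, other filters, the mean of probes, the dye block, each cell type alone, array means as samples, a threshold of 0.01, exchanged B cell labels, and each channel left out.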

Additional observations from a re-analysis of the deposited data

Results flagged for a closer look

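The responses listed here differed between EPM and BMDM or between 1 h and 12 h by limma's test of that difference. Between EPM and BMDM at 1 h these were Zfp36 (-0.83), Zc3h12a (1.37), Btg1 (1.09) and Btg2 (-0.61). Between EPM and BMDM at 12 h they were Zfp36 (-1.41), Zfp36l1 (1.45), Zc3h12a (0.61), Btg1 (0.90) and Pnrc2 (-0.26). From 1 h to 12 h in EPM they were Zfp36 (-1.51), Zfp36l1 (-0.79), Zc3h12a (-1.55), Btg1 (-0.77), Btg2 (-1.57) and Pnrc1 (-1.06). From 1 h to 12 h in BMDM they were Zfp36 (-0.93), Zfp36l1 (-2.19), Zfp36l2 (-0.35), Zc3h12a (-0.79), Btg1 (-0.59), Btg2 (-2.06) and Pnrc2 (0.40). All are differences of log2 responses, and each response lies on 2 arrays.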

How the results depend on the processing

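In 608 values with 1 channel left out, no direction of a called gene turned, and 35 calls were lost, none of them among the responses of EPM and BMDM to KLA. The number of genes of the 8 past the threshold ran from 3 to 5 for the difference between EPM and BMDM at 12 h, from 2 to 3 for the EPM control over time, and was 1 throughout for the BMDM control over time. With the dye as a replicate block, 15 calls were gained and none lost, and the counts were 7 in BMDM at 12 h, 1 and 2 in B cells at 1 h and 12 h, and 7 for the EPM control over time. With array means as samples the counts were 2 and 0 in EPM, 0 in BMDM at 1 h, 0 in B cells at 12 h, and 0 for both differences between EPM and BMDM. Zfp36 in EPM at 12 h was then at -0.013 and Btg2 in the difference at 1 h at 0.11. With a threshold of 0.01 the counts were 3 for the difference at 12 h and 1 for the BMDM control over time. The shares of all genes at that threshold and with 1 channel left out are not given here. Those counts are therefore not read as results about the 8.

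With B cell labels exchanged, and in the authors' table, the counts were 4 at 1 h, 5 at 12 h and 0 for the control over time. With the labels exchanged 47.4%, 49.2% and 5.18% of all genes passed in these comparisons. The share in the authors' table is not given here. Zc3h12a was at -0.71 and -0.70 at 1 h, -0.93 and -0.86 at 12 h, and 0.46 and 0.46 over time. Zfp36 was at -0.39 and -0.38, -0.50 and -0.45, and 0.13 and 0.10. Btg2 over time was at 0.032 in the authors' table. With Pnrc2 left out (chosen after seeing the data) 0 passed in B cells at 12 h, and with the mean of probes 2 did. The share of all genes with the mean of probes is not given here. Without quantile normalization Pnrc2 in the difference at 12 h was at 0.060 and Zfp36 against B cells at 0.041, and the median of all genes moved by 0.13 in that comparison and by -0.11 in BMDM at 12 h. The share of higher among called genes then moved from 44.4% to 57.4% and from 45.0% to 33.0% for the change of response in EPM and BMDM, and from 49.3% to 38.1% and from 50.1% to 60.7% for EPM against BMDM and B cells. Without it, values also moved by over 1.5 times for Btg1 (1.02) and Pnrc2 (-0.24) in EPM at 12 h, Zc3h12a in BMDM at 12 h (0.65) and in the difference at 12 h (1.03), Pnrc2 against B cells (-0.49) and Zfp36 against BMDM (0.14, no longer past the threshold). With the mean of probes Btg2 in the difference at 1 h was at -0.27, Zfp36 in the change of response in BMDM at -0.51 and against BMDM and B cells at 0.16 and -0.36, and Btg2 in the B cell control at -0.26. With the processed signal Zc3h12a in the difference at 12 h was at 0.97 and Zfp36l2 in the change of response in BMDM at -1.12. The causes were not tested, other than the exchange itself. The filters on dim probes changed no call of the 8 genes.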
